A study of Mus musculus with 6 samples.

Results

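Thymus emigrants exposed to TCDD were compared with emigrants exposed to the solvent, on 4 of the 6 arrays of the series. The members were chosen by array title: 2 emigrant arrays with TCDD and 2 with dioxane. All cells came from C57BL/6 fetal thymus lobes taken at gestation day 15 and cultured for 6 days with fresh medium every 2 days, to an age corresponding to day 21. The TCDD emigrants had 10 nM TCDD (2,3,7,8-tetrachlorodibenzo-p-dioxin) in the medium, and the dioxane emigrants had dioxane, the solvent. Emigrants were cells recovered in buffer flushed off the lobes, depleted with magnetic beads against CD4 and CD8 to over 95% purity by flow cytometry, and pooled before RNA was extracted and amplified. The other 2 arrays held CD4-CD8- thymocytes from inside the lobes, 1 with TCDD and 1 with dioxane. The sources do not say whether the replicate arrays held separate cultures, so every p-value measures the spread between these arrays, which may be technical. The dioxane array called number 1 here carries no number in its label, and the other dioxane array carries the number 2.

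The receptor for TCDD is AHR, the aryl hydrocarbon receptor, which enters the nucleus on binding, pairs with ARNT and contacts DNA at a short core motif. In the thymus, AHR activation by TCDD is known for thymic atrophy and for altered maturation of CD4-CD8- precursors, the stage at which T-cell progenitors divide and rearrange their receptor genes. Bead depletion of CD4 and CD8 leaves any cell that carries neither marker, so myeloid, stromal and other cells can remain in such a fraction.

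Values are log2 expression units, in which a difference of 1 is a 2-fold difference. The highest signal of a bacterial control probe set, a guide to signal without a target, was 4.32 and 4.45 on the dioxane arrays and 4.92 and 4.34 on the TCDD arrays (array 1, then array 2, the order used throughout). Between 26.1% and 42.7% of genes lay under that level, most of them on TCDD array 1. The arrays numbered 1 stood apart from those numbered 2. On number 1 the granulocyte enzyme gene Mpo reached 9.83 in the dioxane and 10.06 in the TCDD emigrants, against 4.92 and 4.72 on number 2. Thy1, a surface protein of T-lineage cells, measured 5.69 and 4.90 on number 1 and 9.07 and 8.68 on number 2. The value of 4.90, on TCDD array 1, lay under the control level. Cd8b1, Foxn1 of thymic epithelium, Pecam1 and Cdh5 of endothelium and Itgam of myeloid cells lay under the control level on all 4 arrays. In bulk RNA, fewer cells of a type and less RNA per cell cannot be told apart. Because of the difference between numbers, the genes with the largest differences held within both numbers are given by array, the medians of gene lists by number, and some further members of lists by their mean alone. Actin probe sets at the 3' and 5' ends, whose gap widens as RNA or its amplification shortens, lay apart by 3.06 and 3.01 with dioxane and 3.77 and 3.36 with TCDD.

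Of 18 measured AHR targets, 8 had both TCDD arrays above both dioxane arrays (44.4%, against 10.5% of all genes), with medians of 0.25 within number 1 and 0.27 within number 2. Of the 18, 7 lay under the control level on all 4 arrays. Scin, an actin-severing protein, differed by 1.85 and 2.02 within the numbers. The classical targets Cyp1b1, Cyp1a1, Tiparp and Ahrr had larger differences within number 2. Cyp1b1, an AHR-inducible monooxygenase, measured 4.66 and 4.72 with dioxane and 5.90 and 8.95 with TCDD, so both TCDD arrays lay above both dioxane arrays. Cyp1a1, the classical AHR target, measured 3.96 and 3.84 with dioxane and 4.22 and 5.98 with TCDD, and all but the last value lay under the control level. Tiparp, an ADP-ribosyltransferase that restrains the receptor, measured 6.66 and 6.33 with dioxane and 6.66 and 9.82 with TCDD. The TCDD and dioxane values of Tiparp within number 1 were equal to 2 decimals on this probe set, and the groups overlapped. Of the 2 other probe sets of Tiparp, 1 was higher with TCDD within both numbers.

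Of 12393 genes, 6589 (53.2%) had a TCDD difference of the same sign within both numbers, 2891 higher (23.3%) and 3698 lower (29.8%), and 5804 had opposite signs. A difference of at least 2-fold within both numbers was found for 78 genes that were higher with TCDD (0.629%) and 29 that were lower (0.234%), where the brighter value of each pair had to reach the control level. Without that floor, 771 and 693 genes differed at least 2-fold in either direction within number 1 and within number 2. Of these, 22 genes differed 2-fold within both numbers in opposite directions. The lists of myeloid markers and AHR targets held 197 of the 12393 genes. Of the 78 higher genes, 31 were in these lists and 47 were not listed there. None of the 29 lower genes was in those lists, a set so small that few would be at that share. The groups did not overlap for 57 of the 78 and 24 of the 29, against 10.5% of all genes above and 14.2% below. Selection for 2-fold differences within both numbers favours such separation. These counts are the selection itself and carry no test. With all probe sets of a gene averaged, 64 genes were higher and 10 were lower, so the lower count depends on the choice of probe set.

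**Figure D1:**
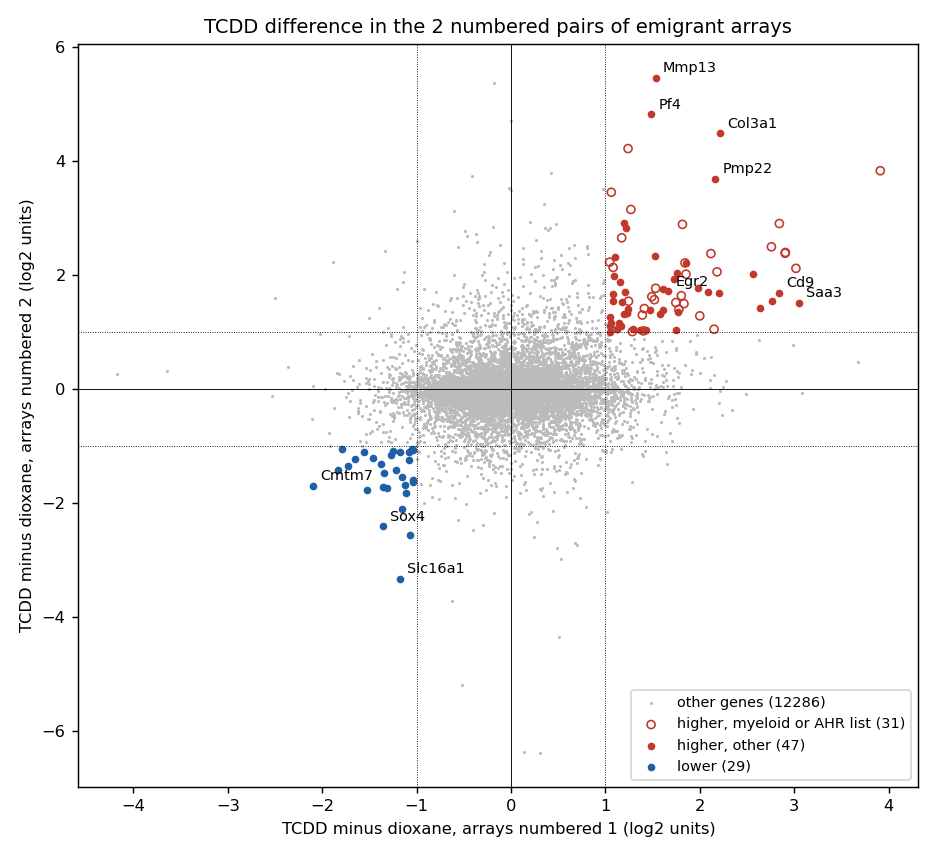
TCDD minus dioxane in log2 units within the arrays numbered 1 (horizontal axis) and within those numbered 2 (vertical axis), 1 point per gene. Red points are the 78 genes at least 2-fold higher within both numbers, open for the 31 in the myeloid or AHR lists, blue points are the 29 at least 2-fold lower, and dotted lines mark the 2-fold threshold.

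No gene passed the test for TCDD against dioxane. Limma, fitted on the 4 arrays with Benjamini-Hochberg adjustment over all genes, called 0 genes at an adjusted p under 0.05 (0.0%), and the smallest adjusted p was 1.0. An unadjusted p under 0.05 was reached by 255 genes (2.06%), 154 of them higher (1.24%) and 101 lower (0.815%). The differences below are therefore descriptions of these arrays. Each is given as mean difference ± moderated standard error from limma, with n = 2 arrays per group, and the median standard error over genes was 0.288. At the edge of the 2-fold threshold, Skp2 had a smaller pair difference of -1.0 and Alcam of 1.01 just inside it. Trim59 at -0.995 and Dram1 at 0.998 lay just outside.

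Outside the myeloid and AHR lists, the 20 genes with the largest differences held within both numbers included matrix, membrane and lipid droplet genes on the higher side. Their mean differences ran from 1.43 to 3.50. Both TCDD arrays lay above both dioxane arrays for 16 of them, against 10.5% of all genes, a separation that the selection favours. Of 9 other probe sets of these genes, 6 had the same sign within both numbers. The other 3, of Col3a1, Mt1 and Steap4, had mixed signs. Col3a1, a fibrillar collagen, measured 4.33 and 5.18 with dioxane and 6.54 and 9.67 with TCDD (3.35 ± 1.09). Its first dioxane value lay close to that array's control level of 4.32. Mmp13, a collagenase, measured 3.52 and 3.38 with dioxane, both under the control level, and 5.05 and 8.85 with TCDD (3.50 ± 1.27), so its difference is bounded by background. The first TCDD value of Mmp13 lay close to that array's control level of 4.92. Both genes were higher on each TCDD array and highest on TCDD array 2. Fn1, the matrix protein fibronectin, measured 9.77 and 6.6 with dioxane and 12.53 and 8.15 with TCDD (2.16 ± 1.79). The Fn1 groups overlapped, since dioxane array 1 exceeded TCDD array 2, and its difference was -0.036 without TCDD array 1. Cav1, the coat protein of caveolae, measured 5.32 and 5.14 with dioxane and 6.93 and 6.52 with TCDD (1.5 ± 0.27).

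Fibroblast and endothelial markers had 12 of 36 measured members with both TCDD arrays above both dioxane arrays (33.3%, against 10.5% of all genes) and 2 with both below (5.56%, against 14.2%). Their median difference was -0.06 within number 1 and 0.76 within number 2, where all genes had -0.02 in each. Col1a2, a chain of type I collagen, measured 5.16 and 5.51 with dioxane and 6.37 and 8.34 with TCDD (2.02 ± 0.69). Bgn, a small matrix proteoglycan, measured 5.46 and 5.64 with dioxane and 6.12 and 8.18 with TCDD (1.60 ± 0.71). Vim, an intermediate filament protein of mesenchymal and white blood cells, differed by 1.21 ± 0.82 with overlapping groups. The summed level of the list was 11.28 and 11.24 with dioxane and 12.95 and 12.38 with TCDD. Without Fn1, left out after its values were seen, it was 10.65 and 11.18 with dioxane and 10.96 and 12.30 with TCDD, so the groups then overlapped, and the endothelial markers Pecam1 and Cdh5 were under the control level.

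Stress, lipid and glucose transport genes formed another part of the higher side. Plin2, which coats lipid droplets, measured 8.83 and 9.28 with dioxane and 10.59 and 11.32 with TCDD (1.90 ± 0.36). Slc2a1, the main glucose transporter GLUT1, measured 3.68 and 5.16 with dioxane and 6.32 and 6.59 with TCDD (2.03 ± 0.54), with the first dioxane value under the control level. For both genes the lower TCDD array exceeded the higher dioxane array by over 1 log2 unit. Mt1, a metal-binding metallothionein, measured 6.87 and 5.58 with dioxane and 9.08 and 7.27 with TCDD (1.95 ± 0.76). Gstm5, a glutathione transferase, measured 5.31 and 3.86 with dioxane and 7.29 and 5.64 with TCDD (1.88 ± 0.75), with dioxane array 2 under the control level. Both were higher on number 1 than on number 2 in each group, and the groups came close to each other, at 6.87 against 7.27 for Mt1. Steap4, a metalloreductase, measured 6.34 and 4.16 with dioxane and 7.80 and 5.56 with TCDD (1.43 ± 1.05), with dioxane array 2 under the control level. Its groups overlapped, and its difference was 0.31 without TCDD array 1, 0.35 without dioxane array 2 and 2.55 without TCDD array 2.

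Of 34 measured glycolysis and hypoxia genes, 12 had the TCDD arrays on the upper side without overlap (35.3%, against 10.5% of all genes). The lower side held 3 (8.82%, against 14.2%), with medians of 0.33 within number 1 and 0.17 within number 2. Bnip3, a mitochondrial protein induced in hypoxia, measured 6.94 and 6.99 with dioxane and 7.67 and 8.19 with TCDD (0.97 ± 0.28). Bhlhe40, a transcriptional repressor, measured 6.85 and 6.58 with dioxane and 7.72 and 7.45 with TCDD (0.87 ± 0.25). Ddit4, an inhibitor of mTORC1 induced by stress, was lower within both numbers at -1.05 ± 1.16, with overlapping groups. Ldha, the lactate dehydrogenase chain of glycolysis, and Vegfa, a growth factor induced in hypoxia, were among the 3 on the lower side, with differences of -0.20 ± 0.24 and -0.33 ± 0.22, and Vegfa lay under the control level on TCDD array 1. NRF2 and oxidative stress genes had 12 of 44 on the upper side (27.3%) and 3 on the lower (6.82%), with medians of 0.06 and 0.21. Mt2, a metallothionein like Mt1, measured 8.91 and 6.42 with dioxane and 10.66 and 7.45 with TCDD (1.39 ± 1.35), so its groups overlapped. Pgd and Taldo1, enzymes of the pentose phosphate pathway, had differences of 0.96 ± 0.41 and 1.06 ± 0.27, while Keap1, which holds NRF2 inactive, had -0.26 ± 0.23. Without dioxane array 2 the NRF2 median over both numbers was -0.13, against 0.07 with all 4 arrays.

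The other higher genes had varied roles. Cd9, a tetraspanin, measured 6.02 and 6.93 with dioxane and 8.86 and 8.63 with TCDD (2.27 ± 0.38). Egr2, an early growth response factor that antigen-receptor signals switch on, measured 5.85 and 6.03 with dioxane and 7.51 and 7.75 with TCDD (1.69 ± 0.24). Both genes had a gap of over 1 log2 unit between the groups. Cd84, a SLAM-family adhesion receptor, measured 5.93 and 7.21 with dioxane and 7.65 and 9.15 with TCDD (1.83 ± 0.68). Rnf128, a ubiquitin ligase known from T-cell anergy, measured 4.36 and 6.52 with dioxane and 6.92 and 8.54 with TCDD (2.29 ± 0.91). The first dioxane value of Rnf128 lay close to that array's control level of 4.32. Number 2 was higher than number 1 in each group for Cd84 and Rnf128. C3ar1, the receptor of complement fragment C3a, measured 5.93 and 7.17 with dioxane and 7.79 and 9.39 with TCDD (2.04 ± 0.70). Pmp22, a membrane protein of myelin and other tissues, measured 4.69 and 5.52 with dioxane and 6.85 and 9.22 with TCDD (2.93 ± 0.86).

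Pf4, a chemokine of megakaryocytes, measured 8.07 and 6.52 with dioxane and 9.56 and 11.35 with TCDD (3.16 ± 0.81). Its difference was larger within number 2, and its groups did not overlap. Fam20c, a kinase of secreted proteins, measured 3.83 and 5.08 with dioxane and 5.43 and 6.85 with TCDD (1.69 ± 0.66), with dioxane array 1 under the control level. Ctsl, a lysosomal protease, measured 7.95 and 10.49 with dioxane and 10.04 and 12.20 with TCDD (1.90 ± 1.12). Saa3, an acute-phase protein, measured 7.73 and 5.35 with dioxane and 10.78 and 6.87 with TCDD (2.29 ± 1.52). The groups of Ctsl and of Saa3 overlapped. With 1 array left out in turn, the Ctsl difference ran from 0.63 (without dioxane array 1) to 3.17 (without dioxane array 2). The Saa3 difference ran from 0.33 (without TCDD array 1) to 4.24 (without TCDD array 2).

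C3ar1, Pf4, Saa3 and Ctsl are also known from myeloid cells or megakaryocytes, and the macrophage and dendritic list was higher beside them. That list had 45 of 124 measured members on the upper side (36.3%, against 10.5% of all genes). The lower side held 2 (1.61%, against 14.2%). Its medians were 0.43 and 1.06, and its summed level was 15.82 and 14.72 with dioxane and 16.25 and 16.05 with TCDD. Csf1r, the receptor that defines macrophages, measured 12.59 and 8.64 with dioxane and 12.39 and 10.47 with TCDD. Cd68, a lysosomal protein of macrophages, measured 8.56 and 7.26 with dioxane and 8.69 and 9.54 with TCDD. Csf1r and Cd68 were thus nearly level within number 1 on these probe sets and higher with TCDD within number 2, while Itgam was under the control level throughout. Of the 2 other probe sets of Csf1r, 1 was higher with TCDD within both numbers. Across the list, however, 81 of 124 members were higher within both numbers (65.3%, against 23.3% of all genes). Lower within both were 4 (3.23%, against 29.8%). At least 2-fold higher within both were 20 of the 124, where 0.629% of all genes were. The part of myeloid cells or megakaryocytes in the higher genes was not tested.

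**Figure D2:**
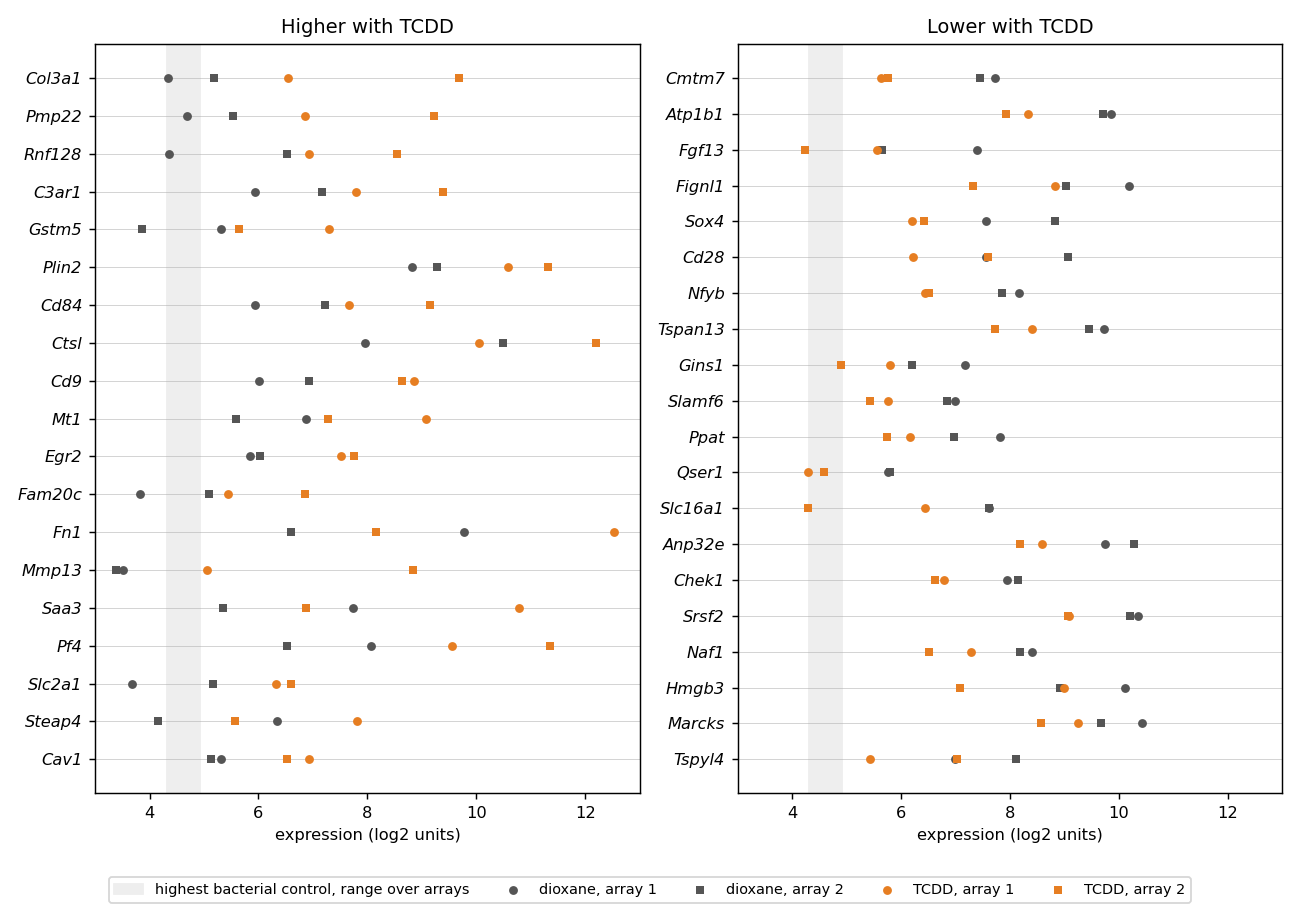
Expression in log2 units on each of the 4 emigrant arrays for 19 of the 20 higher genes (left) and the 20 lower genes (right), with dioxane in grey, TCDD in orange, circles for array 1 and squares for array 2. The grey band spans the highest bacterial control of the 4 arrays (4.32 to 4.92). The groups are apart for 17 of the lower genes, against 14.2% of all genes.

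S100, annexin, galectin and serpin genes bind calcium, membranes or glycans or inhibit proteases. On the upper side without overlap lay 12 of their 34 measured members (35.3%, against 10.5% of all genes). The lower side held 1 (2.94%, against 14.2%), and the medians were 0.25 and 0.51. Capg, an actin-capping protein placed in this list, had the list's largest difference held within both numbers. It measured 4.61 and 5.95 with dioxane and 5.81 and 8.87 with TCDD (2.06 ± 1.12), and its groups overlapped. Anxa3, S100a9, S100a8 and Serpinb2 had larger differences held within both numbers. They were counted in the neutrophil and mast list or, for Serpinb2, among the AHR targets. S100a6, a calcium-binding protein, measured 8.18 and 8.23 with dioxane and 9.0 and 9.93 with TCDD (1.26 ± 0.38). S100a1 differed by 0.99 ± 0.25, but its only other probe set had the opposite sign within both numbers, and S100a4 by 1.75 ± 1.04 with overlapping groups. Interferon response and class I genes had 12 of 50 on the upper side (24%) and 0 on the lower, with medians of 0.17 and 0.59. Ifitm3, a membrane protein that restricts viral entry, measured 8.38 and 7.16 with dioxane and 9.59 and 8.87 with TCDD (1.46 ± 0.52). Ifitm1, of the same family, measured 8.73 and 9.36 with dioxane and 10.16 and 10.39 with TCDD (1.23 ± 0.31). Ifit1, an interferon-induced RNA-binding protein, measured 5.27 and 5.59 with dioxane and 6.25 and 7.52 with TCDD (1.46 ± 0.48). The interferon median over both numbers was -0.06 without TCDD array 2, against 0.32 with all arrays. Respiratory chain subunits had 11 of 45 on the upper side (24.4%) and 0 on the lower, with medians of 0.62 within number 1 and -0.16 within number 2, so the numbers differed in sign. Ndufb8, a subunit of complex I, differed by 0.83 ± 0.33 and Cox4i1, a subunit of cytochrome c oxidase, by 0.59 ± 0.24, while Atp5a1, the alpha subunit of ATP synthase, differed by -0.50 ± 0.33 with overlapping groups.

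On the lower side, the 20 genes with the largest differences held within both numbers included genes of chromatin, replication, RNA processing and the lymphocyte surface. Their mean differences ran from -2.25 to -1.14. Both TCDD arrays lay below both dioxane arrays for 17 of them, against 14.2% of all genes, a separation that the selection favours. Of 31 other probe sets of these genes, 22 had the same sign within both numbers, 2 the opposite sign and 7 mixed signs. The mixed ones included the only other probe set of Cmtm7, Nfyb, Anp32e and Fgf13. Chek1, the replication checkpoint kinase, measured 7.94 and 8.15 with dioxane and 6.79 and 6.63 with TCDD (-1.34 ± 0.24). Gins1, a subunit of the replicative helicase, measured 7.17 and 6.19 with dioxane and 5.79 and 4.89 with TCDD (-1.34 ± 0.49). Fignl1, an ATPase of recombination repair, measured 10.19 and 9.03 with dioxane and 8.83 and 7.32 with TCDD (-1.54 ± 0.67). The groups of these genes did not overlap, although dioxane array 2 and TCDD array 1 lay within 0.5 log2 units for Gins1 and Fignl1, and 1 other probe set of Fignl1 had the opposite sign within both numbers. Srsf2, a splicing factor of the SR family, measured 10.35 and 10.21 with dioxane and 9.08 and 9.07 with TCDD (-1.21 ± 0.23). Naf1, an assembly factor of H/ACA ribonucleoproteins, measured 8.40 and 8.18 with dioxane and 7.28 and 6.51 with TCDD (-1.40 ± 0.34). Ppat, the first enzyme of purine synthesis, measured 7.82 and 6.96 with dioxane and 6.17 and 5.75 with TCDD (-1.43 ± 0.39).

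Transcription and chromatin factors were among the lower genes. Nfyb, a subunit of the factor NF-Y, measured 8.17 and 7.86 with dioxane and 6.44 and 6.51 with TCDD (-1.54 ± 0.24). Sox4, an HMG-box factor of lymphocyte development, measured 7.55 and 8.82 with dioxane and 6.19 and 6.43 with TCDD (-1.88 ± 0.48). Anp32e, a chaperone of the histone variant H2A.Z, measured 9.74 and 10.28 with dioxane and 8.58 and 8.18 with TCDD (-1.63 ± 0.31). For these genes the lower dioxane array exceeded the higher TCDD array by over 1 log2 unit. Hmgb3, a chromatin protein, measured 10.10 and 8.91 with dioxane and 8.99 and 7.09 with TCDD (-1.47 ± 0.77), with overlapping groups. Qser1 measured 5.75 and 5.80 with dioxane and 4.29 and 4.59 with TCDD (-1.33 ± 0.24), with TCDD array 1 under the control level.

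Promoters of the selected genes were searched for GCGTG, the core motif of the AHR-ARNT pair, and for CCAAT, the motif bound by NF-Y, whose subunit gene Nfyb was among the lower genes. Windows were the 250 bases upstream of each RefSeq start (GRCm38.p6), searched on both strands, on which GCGTG reads CACGC from the other side and CCAAT likewise reads ATTGG. Neither motif contains the other. The AHR motif GCGTG stood in 22 of 80 windows of the 78 higher genes (27.5%), in 16 of 28 windows of the 29 lower genes (57.1%) and in 39.7% of the windows of all measured genes. CCAAT stood in 20 of 80 windows of the higher genes (25%), in 12 of 28 of the lower genes (42.9%) and in 34.7% of all windows. Windows were found for 63 of the 78 higher and 24 of the 29 lower genes. A match is a description of the sequence, not a binding site. The windows with the most matches among the 20 higher genes for GCGTG and among the 20 lower genes for CCAAT are shown. Capitals mark only the motif for which a window is shown, GCGTG in Gstm5 and CCAAT in the others, so a GCGTG match of Sox4 stands in lower case. They are those of Gstm5 (chr3:107895604-107895853, plus strand), Sox4 (chr13:28953700-28953949, minus strand) and Anp32e (chr3:95929007-95929256, plus strand), which hold 2, 4 and 4 matches.
Gstm5: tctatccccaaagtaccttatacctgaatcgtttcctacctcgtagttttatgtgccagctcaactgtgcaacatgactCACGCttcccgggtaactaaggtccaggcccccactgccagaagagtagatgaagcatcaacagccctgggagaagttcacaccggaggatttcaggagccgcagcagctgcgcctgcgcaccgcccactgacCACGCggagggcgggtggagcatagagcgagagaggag
Sox4: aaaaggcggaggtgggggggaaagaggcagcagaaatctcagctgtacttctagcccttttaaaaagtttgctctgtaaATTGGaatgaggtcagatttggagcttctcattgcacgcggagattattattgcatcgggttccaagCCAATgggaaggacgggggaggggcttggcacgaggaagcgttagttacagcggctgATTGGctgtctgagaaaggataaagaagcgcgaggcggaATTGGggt
Anp32e: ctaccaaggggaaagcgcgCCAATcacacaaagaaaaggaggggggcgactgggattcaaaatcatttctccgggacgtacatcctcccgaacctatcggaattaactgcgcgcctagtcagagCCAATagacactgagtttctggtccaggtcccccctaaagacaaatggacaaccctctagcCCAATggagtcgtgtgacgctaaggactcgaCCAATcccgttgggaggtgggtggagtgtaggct

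Surface and transport genes completed the lower side. Cmtm7, a membrane protein of lymphocytes, measured 7.72 and 7.45 with dioxane and 5.62 and 5.76 with TCDD (-1.89 ± 0.24). Slamf6, an adhesion receptor of the SLAM family, measured 6.98 and 6.85 with dioxane and 5.76 and 5.43 with TCDD (-1.32 ± 0.25). Both had a gap of over 1 log2 unit between the groups. Cd28, the costimulatory receptor of T cells, measured 7.56 and 9.07 with dioxane and 6.22 and 7.60 with TCDD (-1.41 ± 0.71), and its groups overlapped by a small margin. Atp1b1, a subunit of the sodium pump, measured 9.85 and 9.70 with dioxane and 8.32 and 7.93 with TCDD (-1.65 ± 0.26), with 3 of 4 other probe sets of the same sign and 1 of the opposite sign within both numbers. Slc16a1, the monocarboxylate transporter MCT1, measured 7.61 and 7.62 with dioxane and 6.44 and 4.30 with TCDD (-2.25 ± 0.74), the last value under the control level. It had the largest mean difference of the 20 lower genes. Tspan13, a tetraspanin, measured 9.72 and 9.45 with dioxane and 8.40 and 7.73 with TCDD (-1.52 ± 0.32). Marcks, an actin-binding substrate of protein kinase C, measured 10.43 and 9.67 with dioxane and 9.25 and 8.56 with TCDD (-1.14 ± 0.40). The groups of both were apart. Fgf13, an intracellular relative of the fibroblast growth factors, measured 7.40 and 5.66 with dioxane and 5.56 and 4.24 with TCDD (-1.63 ± 0.75), the last value under the control level. Tspyl4 measured 6.99 and 8.11 with dioxane and 5.43 and 7.02 with TCDD (-1.33 ± 0.68), with overlapping groups.

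Genes of cell division were lower within number 2 and nearly level within number 1. Mitosis and chromosome segregation genes had 25 of 55 measured members on the lower side without overlap (45.5%, against 14.2% of all genes) and 0 on the upper side, yet their median was -0.08 within number 1 and -0.96 within number 2. Nusap1, a spindle protein, measured 8.66 and 9.34 with dioxane and 7.62 and 7.72 with TCDD (-1.33 ± 0.32), and its only other probe set had mixed signs. Ncapg2, a condensin subunit, measured 8.70 and 9.05 with dioxane and 7.66 and 7.47 with TCDD (-1.31 ± 0.26). Cdc25b, a phosphatase that opens mitosis, measured 8.07 and 8.41 with dioxane and 6.76 and 7.5 with TCDD (-1.10 ± 0.35). These members were lower within both numbers, and their groups did not overlap. Pttg1, the securin that holds sister chromatids, was the only member higher within both numbers, at 0.36 ± 0.48. Without TCDD array 2 the median over both numbers was -0.23, against -0.53 with all arrays.

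DNA replication genes had 13 of 47 members on the lower side (27.7%, against 14.2% of all genes). The upper side held 1 (2.13%, against 10.5%). Their medians were 0.11 and -0.93, so the numbers differed in sign. Uhrf1, which maintains DNA methylation, measured 7.78 and 8.48 with dioxane and 7.02 and 6.55 with TCDD (-1.35 ± 0.35), and Cdc7, a kinase that fires replication origins, differed by -1.04 ± 0.27. Cdc6, which loads the helicase, differed by -1.31 ± 0.72 with overlapping groups. The member on the upper side was Rpa1, a single-strand binding protein, at 0.33 ± 0.26. Without dioxane array 2 the replication median over both numbers was 0.01, against -0.37 with all arrays. DNA damage checkpoint and repair genes had 17 of 43 on the lower side (39.5%) and 1 on the upper (2.33%), with medians of -0.09 and -0.47. Usp1, a deubiquitinase of the Fanconi pathway, differed by -0.88 ± 0.25, with 1 of 2 other probe sets of the opposite sign within both numbers. Rad18, a ubiquitin ligase of lesion bypass, differed by -0.73 ± 0.24, and Rad51c, a recombination protein, by -0.90 ± 0.32.

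Splicing factors were lower within both numbers, with medians of -0.25 and -0.37. Of 57 measured members, 19 lay on the lower side without overlap (33.3%, against 14.2% of all genes). The upper side held 1 (1.75%, against 10.5%). Prpf4b, a spliceosome kinase, measured 7.85 and 7.61 with dioxane and 6.27 and 6.62 with TCDD (-1.28 ± 0.26). Srsf6, an SR protein like Srsf2, measured 9.35 and 10.23 with dioxane and 8.36 and 9.14 with TCDD (-1.04 ± 0.44), and Ptbp3, a repressor of exon inclusion, differed by -1.01 ± 0.32. The median over both numbers was -0.11 without dioxane array 2 and -0.48 without dioxane array 1, against -0.27 with all arrays. Sterol and fatty acid synthesis genes had 9 of 30 on the lower side (30%) and 2 on the upper (6.67%), with medians of -0.06 and -0.62. Cyp51, an enzyme of the cholesterol pathway, differed by -0.92 ± 0.44, Elovl5, a fatty acid elongase, by -0.50 ± 0.23, and Ebp, another cholesterol enzyme, by 0.32 ± 0.23 in the other direction. Without dioxane array 2 the sterol median was 0.06, against -0.39 with all arrays.

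T-lineage genes were less uniform. DN2 and DN3 T-lineage genes belong to the stages at which the pre-T-cell receptor is formed. Without overlap, 4 of 35 measured members lay on the lower side (11.4%) and 2 on the upper (5.71%), shares under those of all genes. Lower within both numbers, with or without overlap, were 15 members (42.9%, against 29.8% of all genes). Higher within both were 4 (11.4%, against 23.3%). The medians were -0.09 and -0.26. The median over both numbers was -0.40, and with 1 array left out in turn it ran from -1.08 (without dioxane array 1) to 0.085 (without dioxane array 2). Trib2, a pseudokinase, measured 8.27 and 7.72 with dioxane and 7.43 and 6.16 with TCDD (-1.20 ± 0.50). Cd24a, a surface marker of immature thymocytes, measured 11.85 and 10.78 with dioxane and 11.22 and 7.08 with TCDD (-2.17 ± 1.42), and its groups overlapped. Both were lowest on TCDD array 2. Ptcra, the pre-T-cell receptor alpha chain, measured 5.56 and 7.16 with dioxane and 5.00 and 4.87 with TCDD (-1.42 ± 0.57). The first TCDD value of Ptcra lay close to that array's control level of 4.92. Cd3e, a signalling chain of the receptor, measured 6.99 and 7.68 with dioxane and 7.33 and 8.00 with TCDD (0.33 ± 0.39). Ptcra was lower and Cd3e higher within each number, and the Cd3e groups overlapped. Notch, Wnt and E protein genes had 11 of 52 on each side (21.2%, against 14.2% of all genes below and 10.5% above). Their medians were -0.11 and -0.05. Id2, an inhibitor of E proteins, differed by 0.88 ± 0.42 and Tcf3, which encodes E proteins, by -0.62 ± 0.25. The 2 other probe sets of Id2 had mixed signs. Myb, a factor of progenitors, measured 10.37 and 10.66 with dioxane and 9.85 and 5.47 with TCDD (-2.86 ± 1.46), with differences of -0.52 within number 1 and -5.19 within number 2.

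Death, growth arrest and biosynthesis genes gave single members with separate groups. Casp2, an initiator caspase, measured 10.03 and 10.41 with dioxane and 8.94 and 9.17 with TCDD (-1.16 ± 0.27). Casp4, an inflammatory caspase, measured 5.58 and 5.06 with dioxane and 6.89 and 5.78 with TCDD (1.01 ± 0.46), and Bid, a proapoptotic BCL2-family member, differed by -0.73 ± 0.31. The survival and death list as a whole had 5 of 36 members on the upper side (13.9%) and 3 on the lower (8.33%), against 10.5% and 14.2% of all genes, with medians of 0.06 and 0.11. Gadd45b, a stress-response protein, differed by 0.90 ± 0.25 and Cdkn1a, the inhibitor p21 of cell-cycle kinases, by 0.86 ± 0.46. Their list of cell-cycle inhibitors, p53 targets and D cyclins had 6 of 33 on the upper side (18.2%) and 5 on the lower (15.2%), with medians of -0.19 and 0.17. Ribosome biogenesis genes had 8 of 45 on the lower side (17.8%) and 1 on the upper (2.22%), with medians of 0.31 and -0.51 of opposite sign. Rrs1 and Ddx21, of ribosome assembly, differed by -0.80 ± 0.38 and -0.65 ± 0.35. Serine, one-carbon and amino acid genes, which include Ppat, had 7 of 34 on the lower side (20.6%) and 1 on the upper (2.94%), with medians of -0.07 and -0.52. Gamma-delta T-cell genes had 7 of 15 members higher within both numbers (46.7%, against 23.3% of all genes) and 0 lower (against 29.8%). Their medians were 0.45 and 0.58, but only 2 had separate groups (13.3%, against 10.5% of all genes above). Without TCDD array 2 the median over both numbers was -0.27.

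**Figure D3:**
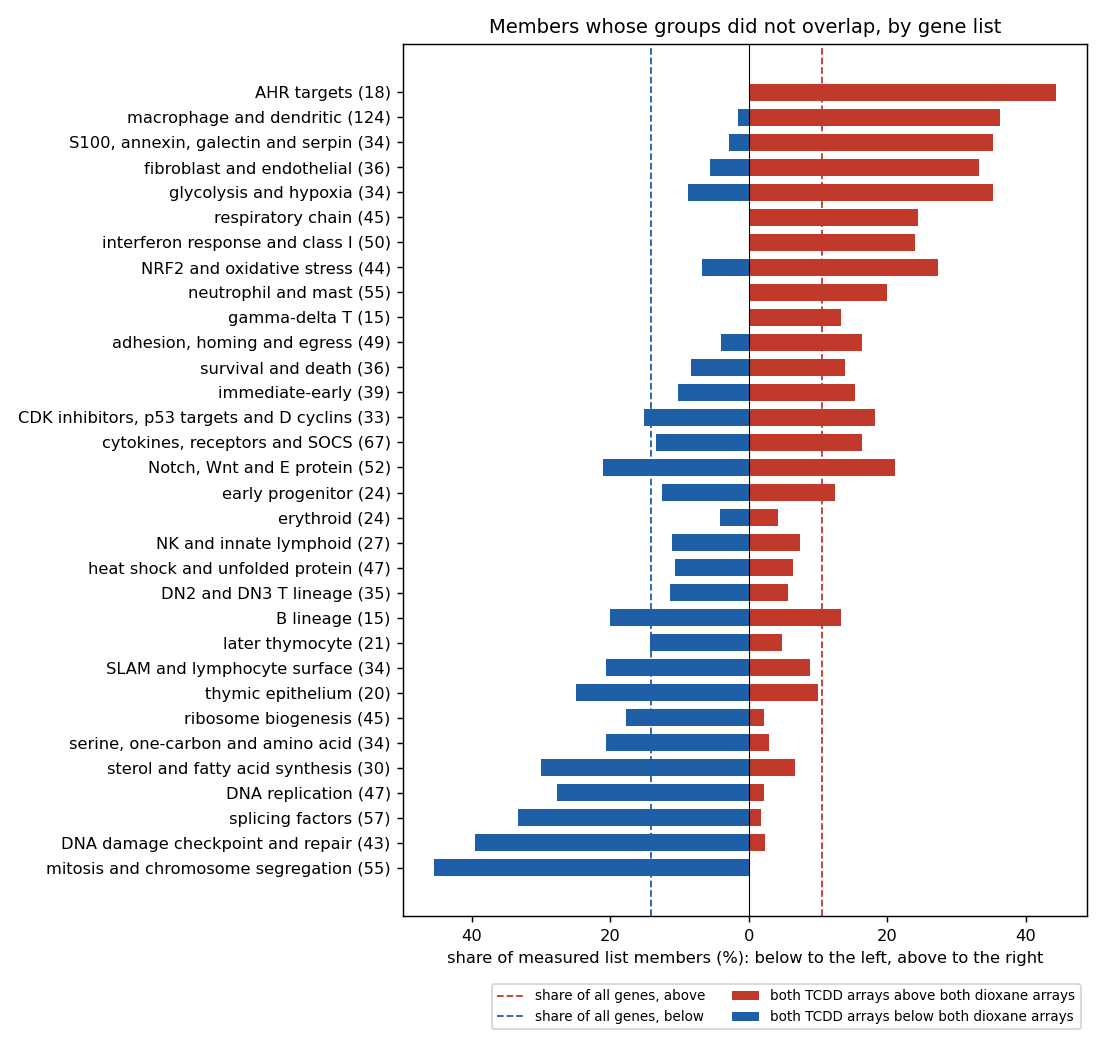
Share of each list's measured members (number in brackets) with both TCDD arrays above both dioxane arrays, to the right in red, or below, to the left in blue. Dashed lines mark the shares of all genes (10.5% above and 14.2% below), and mitosis genes reach 45.5% below.

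**Figure D4:**
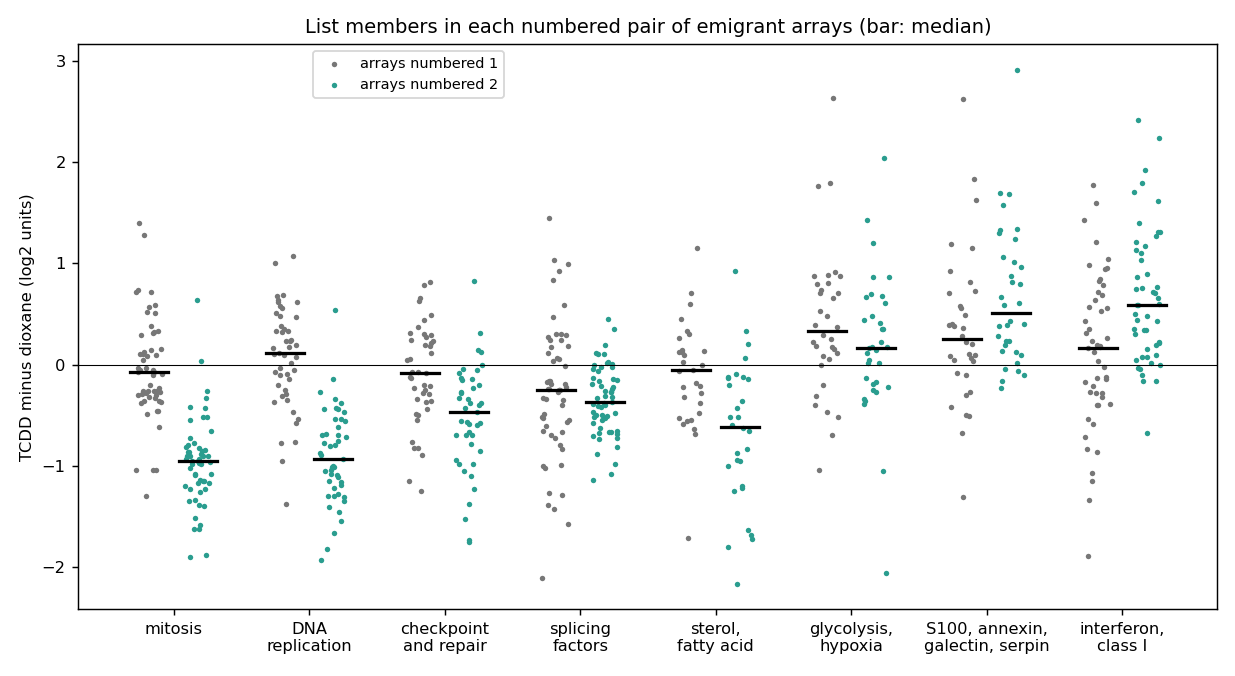
TCDD minus dioxane in log2 units for every measured member of 8 lists, within the arrays numbered 1 in grey and within those numbered 2 in green, with black bars at the medians. The mitosis median is -0.08 within number 1 and -0.96 within number 2, while splicing factors have -0.25 and -0.37.

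All of these lists lie beside a difference in RNA quality signals. The Gapdh gap between 3' and 5' probe sets was 4.75 and 4.69 with dioxane and 5.60 and 4.75 with TCDD, and the actin gap was larger with TCDD within both numbers. The part of this difference in the lists above was not tested.

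The thymocyte arrays, whose TCDD difference was not used to select these genes although their levels counted in choosing each gene's probe set, gave a further comparison of TCDD with dioxane on 1 array each. Of the 29 lower genes, 28 (96.6%) were also lower in thymocytes, against 48.5% of all genes, and 16 were at least 2-fold lower, against 2.79% of all genes. Their median thymocyte difference was -1.23. Slc16a1 differed by -3.36 there, a bound since its TCDD value of 4.37 lay under that array's control level, Gins1 by -2.72, Naf1 by -2.64 and Qser1 by -2.09. Atp1b1 was the exception, at 0.65. Of the 78 higher genes, 61 (78.2%) were higher in thymocytes, against 51.5% of all genes, and 22 were at least 2-fold higher, against 2.83%, with a median of 0.41. Saa3 differed by 1.8 in thymocytes, Cd9 by 1.34, Pf4 by 1.15 and Ctsl by 1.08, whereas Col3a1 measured 9.03 with dioxane and 9.0 with TCDD there. With 1 array per condition, the thymocyte differences have no replicate check. The actin gap between 3' and 5' probe sets was also larger with TCDD in thymocytes, at 4.15 against 3.48 with dioxane. The Gapdh gap there was 5.86 with TCDD and 6.10 with dioxane. The part of RNA quality in the differences shared by emigrants and thymocytes was not tested. Limma, fitted on all 6 arrays with Benjamini-Hochberg adjustment, called 0 genes for a TCDD difference that itself differed between emigrants and thymocytes (97 genes at an unadjusted p under 0.05).

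**Figure D5:**
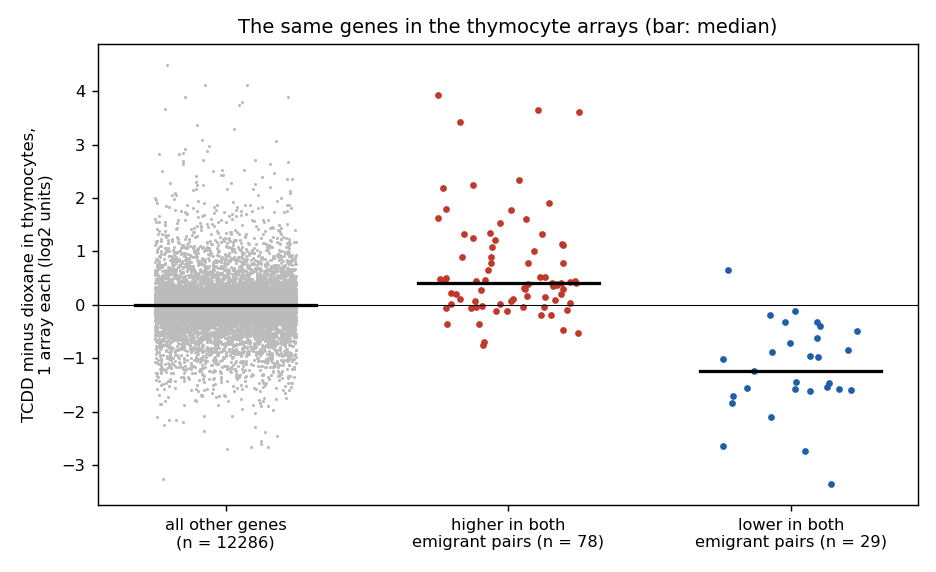
TCDD minus dioxane in log2 units in thymocytes (1 array each) for the 78 genes at least 2-fold higher and the 29 at least 2-fold lower within both emigrant numbers, and for all other genes, with black bars at the medians. The medians are 0.41 for the higher and -1.23 for the lower genes, and Atp1b1 is the single lower gene above 0.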

How the data were processed

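The deposited values are log2 expression units made by the authors with RMA, per the submitters' processing notes, in the Bioconductor affy package, per the series design text. No source used here gives versions. RMA normalises across arrays and understates differences of dim genes.

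Of 22690 probe sets, 64 controls were left out, 691 matched several genes and 1555 none, and 20380 carried 1 gene symbol. Each of 12393 genes was represented by its probe set with the highest mean over 6 arrays, and 4956 genes had more than 1. The fit took the 4 emigrant arrays, with lmFit and eBayes of limma 3.58.1 under R 4.3.3 (Benjamini-Hochberg over all genes, no block), and the code was tested on simulated data. An exact permutation test of 2 against 2 arrays cannot go below p = 0.333. Background was the highest of 27 Bacillus control probe sets, leaving out the brightly spiked E. coli and phage controls.

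The named genes were the 20 higher and 20 lower with the largest smaller-of-pair difference of the same sign within both numbers, with the brighter value at or above background, outside the myeloid and AHR lists and without clone names. The values of 1 of them are not reported here. List examples were members among the largest such differences in a list, with some of the opposite sign. Other probe sets are mentioned above for some examples only. All other probe sets of Cyp51, Rad51c, Ddx21, Rpa1, Bid, Vegfa and Atp5a1 had mixed signs. The members and gene lists were chosen with earlier results of these data known. Summed list levels are log2 of summed linear values. Alternatives were other normalisations, a filter on dim genes, other probe set rules, a prior trend, a block by number, all 6 arrays, other thresholds and the omission of each array. The number of arrays limits the precision.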

Additional observations from a re-analysis of the deposited data

Results flagged for a closer look

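Several results had a TCDD difference in thymocytes opposite in sign to both emigrant pairs. Each rests on 1 thymocyte array per condition, and the differences were not tested for single genes apart from the fit across all genes, in which limma called none (97 at an unadjusted p under 0.05, smallest adjusted p of 1.0). Among the higher genes, the thymocyte difference was -0.030 for Col3a1, -0.11 for Plin2, -0.69 for Mt1 and -0.36 for Fam20c. Among the lower genes it was 0.65 for Atp1b1. Fam20c measured 4.41 and 4.05 in thymocytes, under the control levels of 4.72 and 4.46.

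Among the gene lists, the median thymocyte difference was 0.062 for B lineage, 0.094 for thymic epithelium, -0.19 for glycolysis and hypoxia, -0.059 for NRF2 and oxidative stress and 0.022 for Notch, Wnt and E protein genes. All of these list differences were untested.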

How the results depend on the processing

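The test called 0 genes under every alternative run, with 133 to 725 genes at an unadjusted p under 0.05, and 0 with each array left out in turn. The counts of 78 higher and 29 lower genes stayed within 1.5 times under 3 other normalisations, a filter at the median level and no floor. With all probe sets of a gene averaged the lower count was 10, and with every probe set on its own the counts were 126 higher and 50 lower. A gap of at least 1 log2 unit between the groups left 30 higher and 15 lower. With the same floor, within number 1 alone there were 432 higher and 309 lower, and within number 2 alone 420 and 268, alternatives chosen after seeing the data. Leaving out an array gives no such count, since both pairs are needed. Fn1 ranged from -0.036 (without TCDD array 1) to 4.35 with single arrays left out, and no other of the 40 named genes changed sign. With single arrays left out, list medians ran from 0.091 to 0.64 for fibroblast and endothelial, 0.091 to 0.27 for glycolysis, 0.24 to 0.65 for S100, 0.044 to 0.53 for respiratory chain and -0.43 to -0.16 for checkpoint and repair genes. Several others changed sign, such as ribosome biogenesis (-0.34 to 0.083), serine and one-carbon (-0.39 to 0.041) and cell-cycle inhibitors (-0.13 to 0.24). Of these list results, 52 moved by at least the standard deviation of the number 1 and number 2 medians, and 76 did not.

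With the array number as a replicate block, limma called 0 genes, with 725 at an unadjusted p under 0.05. The number 1 minus number 2 difference of the TCDD arrays correlated with that of the dioxane arrays across genes at 0.56. No label says that a number marks a shared culture, so the pairing is a hint from the data. Values under the bacterial control level set bounds rather than sizes.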
